A study of Ovis aries with 5 samples.

Results

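PLAG1 and IGF2BP2 lie at regions of the sheep genome that the study lists as selective sweeps of domestic sheep. The sweep region of PLAG1 runs on chromosome 9 of Oar_v3.1 from 36140001 to 36240000, and that of IGF2BP2 on chromosome 1 from 199640001 to 199790000. Described here are all peaks and joint regions within 250 kb of these sweep regions, a window of 600.0 kb for PLAG1 and of 650.0 kb for IGF2BP2. The members were chosen by position alone. They came to 74 entries for PLAG1 and 88 for IGF2BP2, together 162 of the 296523 entries in the 7 lists used. The 7 lists are 4 lists of MACS peaks, 1 for each library, and 3 joint lists of regions found in both replicates of H3K4me3, H3K27ac or H3K27me3.

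PLAG1 is a zinc finger transcription factor that is active in fetal tissues and activates the gene of the growth factor IGF2. Variants near PLAG1 are known for their association with stature in cattle and other livestock. IGF2BP2 is an RNA-binding protein that binds IGF2 mRNA and other transcripts, and mice that lack it are known to be lean and to resist obesity. H3K4me3 marks promoters, H3K27ac marks active promoters and active enhancers, and H3K27me3 is the mark of Polycomb repression. Here a promoter-like region is a region of the joint H3K4me3 list, and an enhancer-like region, as in the study, is a joint H3K27ac region that overlaps no joint H3K4me3 region.

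The tissue was perirenal adipose tissue, the fat around the kidney, of untreated wild type merino fetuses at 132 days post conception. H3K4me3 and H3K27ac were each measured by ChIP-Seq in 2 libraries, from the same 2 animals, called replicate 1 and replicate 2. Age and animals are as the labels give them, whereas the study's methods give a slightly lower age and a further animal for H3K4me3, which is not analysed here. The 4 libraries held from 92882463 to 145716523 tags after duplicates were removed, and the pooled input held 26651829. There was no treatment or second tissue, so no groups were compared and no test was run, and the difference between 2 replicates is the only measure of error. Each animal gave 1 library per mark, so a difference between the animals cannot be told apart from a difference between libraries. In bulk tissue, fewer cells with a mark and less of the mark in each cell cannot be told apart. The adipose identity of the tissue was not checked against marker genes, because no gene positions on Oar_v3.1 were used. The study's list also places CHCHD7 and an unnamed gene in the sweep region of PLAG1. In the RefSeq annotation of a later sheep assembly, the protein-coding genes next to PLAG1 are MOS and CHCHD7, and those next to IGF2BP2 are TRA2B and SENP2. The builds differ, so no peak was assigned to a gene.

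The PLAG1 window held 6 joint H3K4me3, 6 joint H3K27ac and 6 joint H3K27me3 regions. The active marks lay in and before the sweep region, in the direction of smaller coordinates. The last active region ended at 36213158, inside the sweep region, and the remaining 276.8 kb of the window held no region of the joint H3K4me3 or H3K27ac list. Neither H3K27ac library had a peak there at any FDR. H3K27me3 lay the other way: 1 joint region was in the sweep region and the other 5 lay from 2.35 to 149.4 kb after it. These 5 ran from 36242351 to 36244244, from 36280179 to 36281175, from 36281416 to 36282697, from 36386555 to 36388304 and from 36389448 to 36396837. 1 of the 6 H3K27me3 regions overlapped a joint H3K4me3 region (14.6% of the autosomal H3K27me3 regions did), and 0 overlapped a joint H3K27ac region (4.61% on the autosomes).

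**Figure D1:**
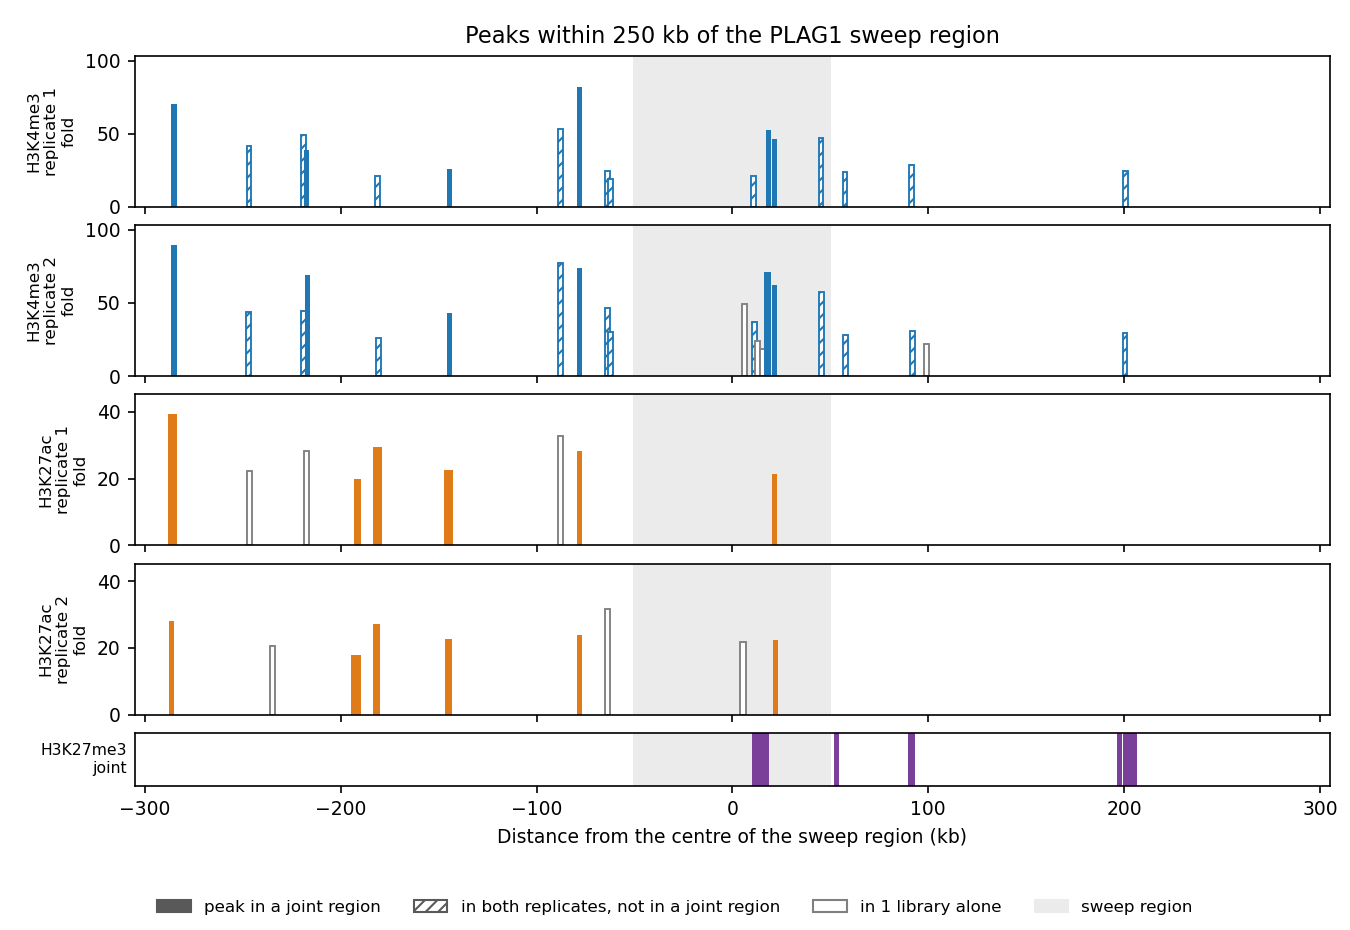
Peaks of each library and joint H3K27me3 regions within 250 kb of the PLAG1 sweep region, by distance from its centre in kb. Bar height is the fold enrichment over the input as MACS gives it, bars under 2.5 kb are drawn 2.5 kb wide, and the fill tells peaks in a joint region from peaks of both replicates outside it and peaks of 1 library. H3K27ac bars stop inside the grey sweep region, and to the right of it only H3K4me3 peaks outside the joint list and H3K27me3 regions are drawn.

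Inside the PLAG1 sweep region the 3 marks lay side by side. The joint H3K27me3 region ran from 36199819 to 36208885. At 9067 bp it was longer than most, at the 96.7th percentile of length among autosomal H3K27me3 regions. A first promoter-like region ran from 36205899 to 36209808 and shared 2987 bp with it, which is 76.4% of this H3K4me3 region. Fold enrichment of H3K4me3 over the input was 52.5 in replicate 1 (535 tags) and 71.2 in replicate 2 (951 tags). Neither H3K27ac library had a peak on it. It was 1 of 6 promoter-like regions of the window on H3K27me3, where 12.9% of autosomal H3K4me3 regions overlapped an H3K27me3 region.

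The second promoter-like region of the sweep began 0.713 kb further on, from 36210522 to 36212697, and carried no H3K27me3. H3K4me3 stood at 46.4-fold in replicate 1 (455 tags) and 62.5-fold in replicate 2 (751 tags). A joint H3K27ac region from 36210446 to 36213158 covered the whole of it, and began 1560 bp after the end of the H3K27me3 region. H3K27ac stood at 21.3-fold (325 tags) and 22.3-fold (406 tags), so that the replicates lay close together. Both values were below the median of their library, at the 27.7th and 35.0th percentile of autosomal H3K27ac peaks. H3K4me3 at this place was at the 71.4th and 78.1st percentile. In both animals, H3K27ac was called on the promoter-like region free of H3K27me3 and not on the other.

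**Figure D2:**
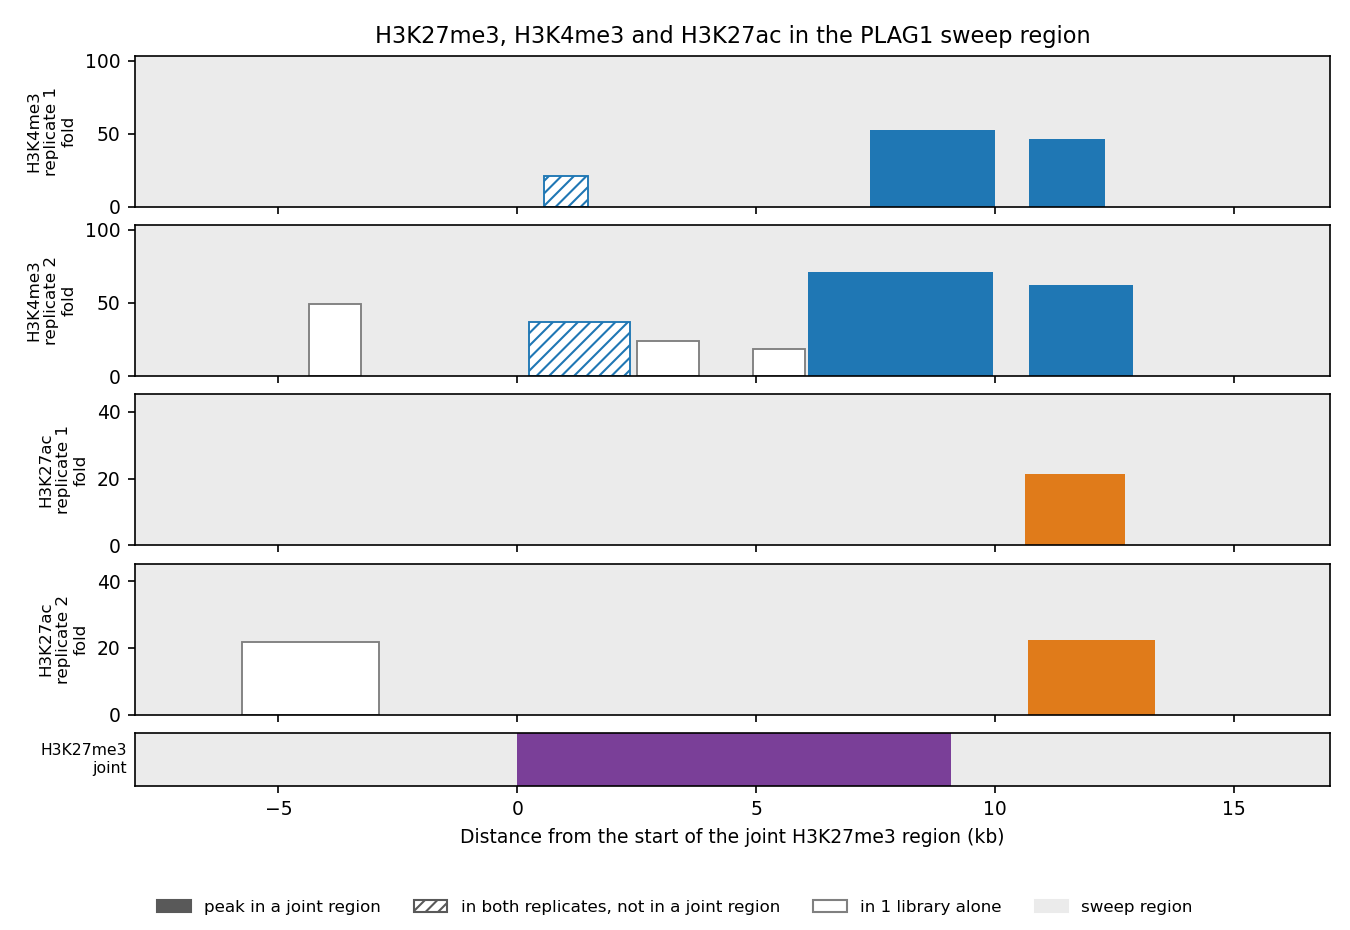
The same tracks over a stretch of the PLAG1 sweep region, with every bar drawn to its true width, by distance in kb from the start of the joint H3K27me3 region. The first H3K4me3 region starts inside the H3K27me3 region and has no H3K27ac, and the second lies past its end and under the H3K27ac peaks of both replicates.

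Weaker H3K4me3 peaks lay along the rest of this H3K27me3 region. A peak from 36200060 to 36202172 was called in both replicates, at 21.1-fold (95 tags) in replicate 1 and 37.2-fold (338 tags) in replicate 2. It is absent from the joint list because its FDR was 3.25 and 1.14%, above the limit of 1%. Replicate 2 alone had 2 more peaks on the H3K27me3 region, with 180 and 116 tags. Just before it, replicate 2 alone also had an H3K4me3 peak (164 tags, 49.2-fold) inside an H3K27ac peak from 36194058 to 36196919 (330 tags, 21.9-fold). Neither of these was called in replicate 1. A further H3K4me3 peak of both replicates lay near the end of the sweep region, from 36234935 to 36235640, with fold enrichments of 47.2 and 57.7 and an FDR of 2.28 and 2.54%.

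Before the sweep region, 4 promoter-like regions lay 27.3 to 233.4 kb away, and 3 of them carried joint H3K27ac. With the pair in the sweep, 4 of the 6 promoter-like regions overlapped a joint H3K27ac region (56.7% on the autosomes). The farthest, from 35903230 to 35906570, had the highest tag counts of H3K4me3, at 950 tags (70.5-fold) for replicate 1 and 1216 tags (89.8-fold) for replicate 2. Its H3K27ac region, from 35902055 to 35906380, stood at 39.3-fold (669 tags) and 28.2-fold (408 tags). By fold enrichment, though not by tags, this was the highest H3K27ac of the window in replicate 1. In replicate 2 it was the highest joint region, with the next at 27.3-fold, but a peak of replicate 2 alone was higher, at 31.7-fold.

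The promoter-like region nearest to the sweep ran from 36111032 to 36112709. It was the highest of the window by H3K4me3 fold enrichment in replicate 1 (82.2, 512 tags), at the 99.8th percentile of that library, and had 73.6 and 675 tags in replicate 2. Its H3K27ac region was short, at 1583 bp, and stood at 28.2-fold (226 tags) and 23.8-fold (189 tags). At the region from 36044226 to 36046528, H3K4me3 was at 25.6 and 43.2-fold (304 and 594 tags), the lowest fold enrichment of the 6 in both replicates, while the H3K27ac region around it spanned 4614 bp with 741 and 564 tags. H3K27ac reached 1641 bp before and 670 bp past the H3K4me3 region.

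The remaining promoter-like region, from 35972083 to 35973763, had no joint H3K27ac region, and here the H3K27ac calls of the replicates differed. H3K4me3 had 224 tags (38.5-fold) in replicate 1 and 439 (69.1-fold) in replicate 2. H3K27ac was called in replicate 1 (234 tags, 28.4-fold, FDR 4.50%) and not in replicate 2, which had the higher H3K4me3. Of autosomal H3K4me3 regions without a joint H3K27ac region, 51.3% overlapped an H3K27ac peak of at least 1 library.

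The PLAG1 window held 2 enhancer-like regions out of 6 H3K27ac regions (75.4% on the autosomes), and both lay before the sweep region, 129.1 and 139.7 kb from it. The first, from 35995484 to 36000311, held 470 tags in replicate 1 against 550 for replicate 2. Its fold values of 20.0 and 17.8 were low for these libraries, at the 19.5th and 6.03th percentile. The second, from 36006522 to 36010950, was 6.21 kb away and stronger, at 29.5-fold (736 tags) and 27.3-fold (562 tags). An H3K4me3 peak of both replicates lay inside it, with 82 and 169 tags and an FDR of 4.88 and 2.49%, so it is enhancer-like only at the FDR limit of the joint list. No H3K4me3 peak of either library touched the first. On the autosomes, 41.5% of enhancer-like regions overlapped an H3K4me3 peak of at least 1 library.

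Beyond the joint list, 11 further H3K4me3 peaks of the PLAG1 window were called in both replicates, more than the 6 joint regions. This was also so on the autosomes, where 34195 H3K4me3 peaks of replicate 1 were shared at every FDR but only 15925 within the limit. All 11 were at an FDR above 1% in replicate 2, from 1.01 to 4.75%, whereas 5 of them were within 1% in replicate 1. The highest, from 36101787 to 36102858, reached 53.3 and 77.5-fold (189 and 233 tags) with an FDR of 0.66 and 1.39%. The region from 35942408 to 35943877 missed the limit by least, with 41.3 and 44.1-fold (236 and 285 tags) and an FDR of 0.60 and 1.01%. That from 35970714 to 35971649, next to the promoter-like region with H3K27ac called in replicate 1 alone, had 49.1 and 44.3-fold. A peak 13.3 kb before the sweep was weaker in replicate 1 (24.5-fold) than in replicate 2 (46.7-fold), and so was its neighbour at 11.6 kb (18.8 against 29.9-fold). An H3K27ac peak lay on the former in replicate 2 alone, at 31.7-fold (258 tags).

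3 of these 11 peaks lay on joint H3K27me3 regions. Besides the 1 in the sweep region, these were a peak from 36280358 to 36282174 and a peak from 36389506 to 36391528, after the sweep. The former differed most between the animals, with 282 tags over 1817 bp in replicate 1 and 96 tags over 628 bp in replicate 2, a log2 ratio of -1.79. The latter was alike in both, at 24.6-fold (396 tags) and 29.7-fold (398 tags), at the start of an H3K27me3 region of 7390 bp. Counted over all its peaks, replicate 1 had 4 of 17 H3K4me3 peaks of the window on H3K27me3 (16.0% of its autosomal peaks) and replicate 2 had 6 of 21 (11.2%). The peak from 36246889 to 36248079 lay 6.89 kb after the sweep, away from H3K27me3, with 125 and 118 tags. The remaining H3K4me3 peak after the sweep, from 36288732 to 36289890, was called in replicate 2 alone (21.8-fold, 123 tags).

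In the PLAG1 window, each replicate had 3 H3K27ac peaks called in it alone, and 6 of its 9 were shared. That is 66.7% in each replicate, against 76.9% (replicate 1) and 81.0% (replicate 2) on the autosomes. In replicate 1 all 3 lay on an H3K4me3 peak (41.2% of such peaks on the autosomes), and in replicate 2 2 of 3 did (21.0%). Those of replicate 1 ran between 22.3 and 32.6-fold (202 to 316 tags), and those of replicate 2 between 20.7 and 31.7-fold (258 to 330 tags). These levels overlap those of the peaks found in both replicates, whose medians were 25.4 and 23.3-fold. By fold enrichment, calls in 1 animal were thus not limited to the weakest peaks of this window. By tags they lay towards the low end. Shared peaks of replicate 1 held 226, 325, 470, 669, 736 and 741 tags. Those of replicate 2 held 189, 406, 408, 550, 562 and 564. In the IGF2BP2 window, H3K27ac peaks of replicate 2 alone had a median of 19.4-fold, against 26.8-fold for its shared peaks. The 1 peak of replicate 1 alone, at 29.6-fold, lay above the median of its shared peaks.

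The IGF2BP2 window was richer in H3K27ac and nearly free of H3K27me3. It held 7 joint H3K4me3, 13 joint H3K27ac and 1 joint H3K27me3 regions. 4 of 7 promoter-like regions overlapped a joint H3K27ac region (56.7% on the autosomes), and 5 of 13 H3K27ac regions overlapped a promoter-like region (24.6%). The other 8 were enhancer-like, against 2 in the PLAG1 window. 0 of them lay before the sweep region, 2 in it or across its edge and 6 after it. Between 199508057 and 199731521, a stretch of 223.5 kb, there was no joint H3K27ac region, although replicate 2 alone had 3 H3K27ac peaks there.

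**Figure D3:**
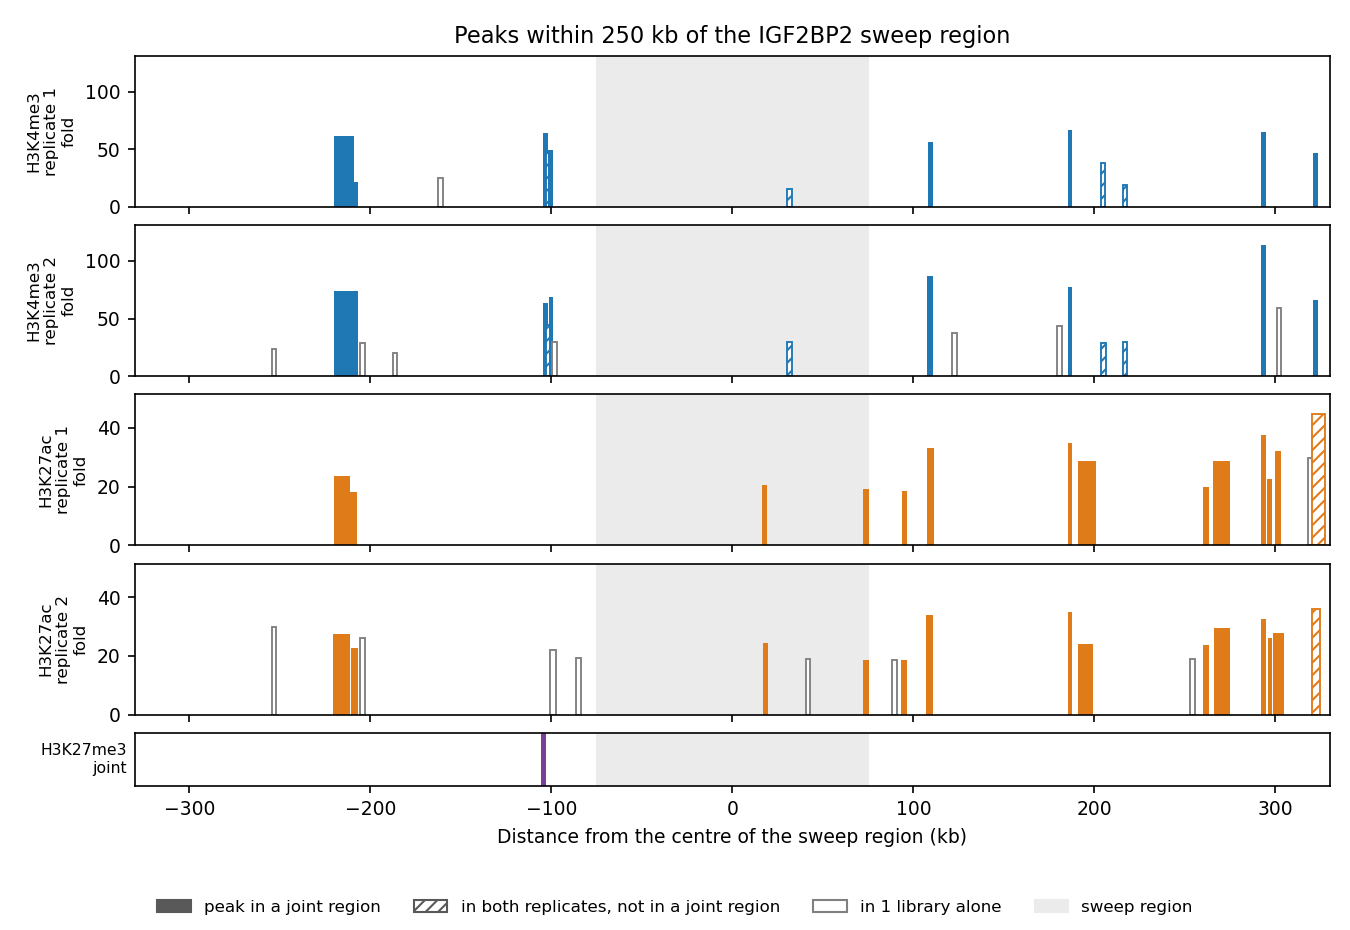
Peaks of each library and the joint H3K27me3 region within 250 kb of the IGF2BP2 sweep region, drawn as for PLAG1. Solid H3K27ac bars crowd to the right of the grey sweep region, where 4 of the 7 promoter-like and 6 of the 8 enhancer-like regions lie, and the sweep region itself holds no solid H3K4me3 bar.

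The IGF2BP2 sweep region held no promoter-like region, unlike that of PLAG1. It held 1 enhancer-like region from 199731521 to 199734349 and a second from 199787195 to 199790353 that ran across its end. The first stood at 20.5-fold (356 tags) in replicate 1 and 24.3-fold (346 tags) in replicate 2. The second stood at 19.1-fold (536 tags) and 18.6-fold (511 tags). Both were alike in the animals, with log2 ratios of depth-scaled tags (replicate 2 over replicate 1) of -0.06 and -0.09, and both were below the median of their library by fold enrichment. No H3K4me3 peak of either library touched them.

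H3K4me3 was called in the sweep region by both libraries, outside the limit of the joint list. The peak, from 199745557 to 199747686, stood at 15.6-fold (179 tags) and 29.6-fold (328 tags). Its FDR was 2.65 and 1.70%, and in replicate 1 it stood at the 4.02th percentile of fold enrichment. Replicate 2 alone added an H3K27ac peak from 199755637 to 199758020, with 275 tags and a fold enrichment of 18.9. The sweep region held no H3K27me3 region.

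The widest promoter-like region of both windows lay 131.5 kb before the IGF2BP2 sweep, from 199494802 to 199508460. Its 13659 bp put it at the 99.3rd percentile of length among autosomal H3K4me3 regions. In replicate 1 its main peak spanned 10929 bp with 2580 tags within the FDR limit and a fold enrichment of 61.4. In replicate 2 a single peak of 13659 bp held 5827 tags, with a fold enrichment of 74.0. Scaled to the depth of the libraries, the log2 ratio of replicate 2 over replicate 1 was 0.94, the largest in favour of replicate 2 among the 13 promoter-like regions of both windows. This ratio leaves out a second peak of replicate 1 in the region, from 199506204 to 199507584. It had 156 tags and an FDR of 2.55%, above the limit, and the single peak of replicate 2 spans that stretch. H3K27ac differed less: its region from 199494436 to 199503739 had 1653 and 1739 tags (23.4 and 27.3-fold), a log2 ratio of 0.06. A second H3K27ac region, from 199504001 to 199508057, lay within the same promoter-like region with 433 and 585 tags, a log2 ratio of 0.42. By fold enrichment the longer of these was at the 42.3th and 65.3th percentile of autosomal H3K27ac peaks, and by length at the 90.6th of the joint regions.

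A pair of promoter-like regions lay 27.4 and 23.8 kb before the sweep, beside the only H3K27me3 region of the window, from 199609727 to 199611644. The first, from 199611089 to 199612579, shared 556 bp with it, or 37.3% of its length, and was the 1 of 7 promoter-like regions on H3K27me3. H3K4me3 stood at 64.2-fold (406 tags) in replicate 1 and 63.1-fold (357 tags) in replicate 2, and neither library had an H3K27ac peak on it. It was also the only promoter-like region of both windows with less depth-scaled H3K4me3 in replicate 2, with a log2 ratio of -0.43. The second, from 199613674 to 199616168, was free of H3K27me3 and had 383 and 682 tags (49.3 and 68.8-fold). Here H3K27ac was called in replicate 2 (485 tags, 22.1-fold) and not in replicate 1. Between the 2, a short H3K4me3 peak of 112 and 93 tags was called in both replicates at an FDR of 0.94 and 2.87%.

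At both loci the promoter-like region on H3K27me3 had no H3K27ac in either animal. Its neighbour off H3K27me3 had H3K27ac in both animals at PLAG1 and in replicate 2 alone at IGF2BP2. The order of marks was thus alike only if calls of a single library are counted, and by the joint list the neighbour at IGF2BP2 had no H3K27ac. With 1 such pair in each window this is a description of 2 places. On the autosomes, 1.78% of H3K27ac regions overlapped an H3K27me3 region, and 0 of the 19 in the windows did. The share of autosomal H3K4me3 regions on or off H3K27me3 that carry H3K27ac is not given here.

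After the sweep region, 3 promoter-like regions with H3K27ac had the highest H3K4me3 fold enrichments of the window in replicate 2, but not in replicate 1. The nearest, from 199822711 to 199825635, stood at 56.4-fold (543 tags) and 86.6-fold (1030 tags). Its H3K27ac stood at 33.0-fold (586 tags) and 34.0-fold (691 tags). The next, from 199900809 to 199902363, had 372 and 646 tags of H3K4me3 (66.6 and 77.7-fold). Its H3K27ac region, of 1712 bp, was short, at the 1.59th percentile of autosomal H3K27ac regions, and gave the closest match between the animals, with 313 and 314 tags, both at 35.0-fold. The farthest, from 200007209 to 200009531, had 549 and 1079 tags. Its fold enrichment was 65.0 in replicate 1 and 114 in replicate 2, the latter at the 99.8th percentile of that library, and its H3K27ac was at 37.4 and 32.5-fold.

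A further promoter-like region at the end of the window, from 200035756 to 200038651, had 456 and 833 tags (47.0 and 66.3-fold) and counted as free of H3K27ac only through the FDR limit. An H3K27ac peak was called on it in both replicates, at 44.7-fold (1356 tags) in replicate 1 and 35.9-fold (900 tags) in replicate 2. These were the highest H3K27ac fold enrichments of either window in each replicate, at the 98.4th and 91.0th percentile. The FDR of 10.66% in replicate 1 was above the limit of 10% and that of 9.38% in replicate 2 was below it, so the pair is absent from the joint list. It was the only H3K27ac peak pair of both windows that the limit left out. With it, 5 of the 7 promoter-like regions of the IGF2BP2 window had H3K27ac in both animals at any FDR. The autosomal share under this wider rule is not given here. Of autosomal H3K4me3 regions without a joint H3K27ac region, 51.3% overlapped an H3K27ac peak of at least 1 library at any FDR.

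Of the 6 enhancer-like regions after the IGF2BP2 sweep, 3 lay close to a promoter-like region or to a neighbour of it, and 3 lay farther off. The longest ran from 199905940 to 199915743, 3.50 kb past the H3K27ac of a promoter-like region. Its 9804 bp put it at the 91.9th percentile of length among autosomal H3K27ac regions, at 28.6-fold (1829 tags) in replicate 1 and 23.9-fold (1376 tags) in replicate 2. The summits of the animals lay 3982 bp apart in it, so they peaked in different parts of the same region. A second long region, from 199980752 to 199989984, was more alike, with 1429 and 1394 tags, 28.9 and 29.6-fold, and summits 31 bp apart. It followed a shorter region from 199975030 to 199978548 (432 and 532 tags) after 2.20 kb, and ended 17.1 kb before the next promoter-like H3K27ac.

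The last stretch of H3K27ac began at the promoter-like region from 200007209 to 200009531 and went on in 2 enhancer-like regions with gaps under 1 kb. The first, from 200010100 to 200013104, had 382 and 401 tags with summits 2 bp apart. The second, from 200013893 to 200019980, had 510 tags over 3234 bp in replicate 1 and 880 over 6088 bp in replicate 2. It had the largest tag difference between the animals among the 13 H3K27ac regions of the window, at a log2 ratio of 0.77, while its fold enrichment was higher in replicate 1 (32.1) than in replicate 2 (27.9). Replicate 2 alone had an H3K4me3 peak in it, and it was the 1 of the 8 enhancer-like regions with any H3K4me3 peak, against 41.5% on the autosomes. The remaining enhancer-like region, from 199808421 to 199811546, lay 10.5 kb from the nearest promoter-like H3K27ac. By fold enrichment, though not by tags, it was the weakest of the 8 in both replicates, at 18.5-fold in each (382 and 517 tags).

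Enhancer-like and promoter-like H3K27ac overlapped in level. Over the 8 enhancer-like regions of the IGF2BP2 window fold enrichment spanned 18.5 to 32.1 (replicate 1) and 18.5 to 29.6 (replicate 2), and over the 2 of PLAG1 it spanned 20.0 to 29.5 and 17.8 to 27.3. The 3 promoter-like H3K27ac regions after the IGF2BP2 sweep lay above these ranges in both replicates, at 32.5 to 37.4-fold. The 2 before that sweep did not, at 23.4 and 27.3-fold for the longer and 18.1 and 22.7-fold for the other. Those in and near the PLAG1 sweep did not either, at 21.3 to 28.2-fold. The farthest of the PLAG1 window, at 39.3 and 28.2-fold, lay above both ranges in replicate 1. In replicate 2 it lay above that of PLAG1 alone. H3K4me3 peaks of the IGF2BP2 window outside the joint list and away from the sweep were found in both replicates at 2 places after it, from 199918545 to 199920930 (37.8 and 28.4-fold) and from 199931426 to 199932395 (19.0 and 29.3-fold).

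The agreement of the libraries was counted at every FDR. In the PLAG1 window, 17 of 17 H3K4me3 peaks called in replicate 1 were also called in replicate 2 (100.0%, exact 95% interval 80.5 to 100.0%), against 75.5% of its autosomal peaks. Of the 21 peaks of replicate 2, 17 were found in replicate 1 (81.0%, interval 58.1 to 94.6%), against 65.8%. For H3K27ac, 6 of 9 peaks of each replicate were shared (66.7%, interval 29.9 to 92.5%), against 76.9 and 81.0% on the autosomes. The intervals cover counting error only, and neighbouring peaks are not independent. Within the FDR limits, the shared share of H3K4me3 peaks was 6 of 11 in replicate 1 (72.3% on the autosomes) and 6 of 6 in replicate 2 (89.3%).

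In the IGF2BP2 window, 12 of 13 H3K4me3 peaks of replicate 1 were shared (92.3%, interval 64.0 to 99.8%) and 11 of 18 of replicate 2 (61.1%, interval 35.7 to 82.7%). For H3K27ac, 14 of 15 peaks of replicate 1 (93.3%, interval 68.1 to 99.8%) and 14 of 21 of replicate 2 (66.7%, interval 43.0 to 85.4%) were shared. Within the limit of 10% these were 13 of 14 and 13 of 21, against 74.4 and 78.8% on the autosomes. Replicate 2 thus had 7 single-library peaks of each mark in this window and replicate 1 had 1 of each. Those of replicate 2 had 115 to 178 tags for H3K4me3 and 214 to 485 for H3K27ac. Of the 7 H3K27ac peaks, 3 lay on an H3K4me3 peak of either library (21.0% on the autosomes). Apart from the PLAG1 value of 100.0%, each interval holds the autosomal share of its library.

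**Figure D4:**
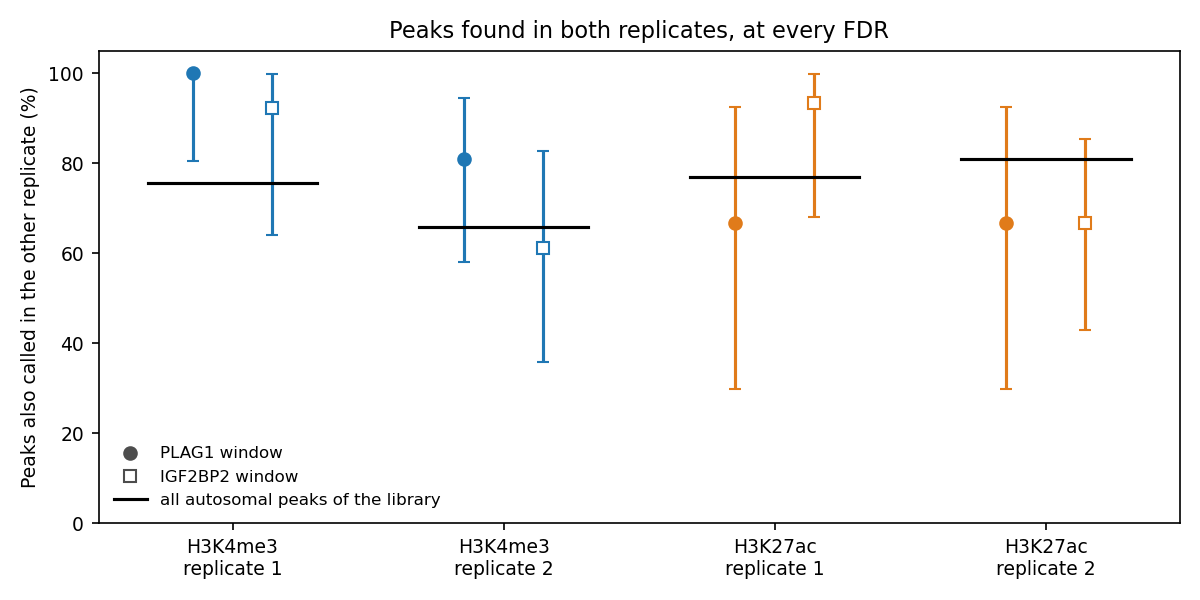
Percent of the peaks of each library that overlap a peak of the other replicate of the same mark by at least 1 bp. Points are the PLAG1 and IGF2BP2 windows with exact 95% intervals for counting error, and black lines are all autosomal peaks of the library. Only the interval of PLAG1 for H3K4me3 replicate 1 (80.5 to 100.0%) lies off its line (75.5%).

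H3K4me3 was higher in replicate 2 at most promoter-like regions of both loci, and so it was over the genome. The log2 ratio of depth-scaled tags, replicate 2 over replicate 1, was above 0 at 6 of 6 regions of the PLAG1 window, with a median of 0.54 and a range of 0.12 to 0.73. It was above 0 at 6 of 7 regions of the IGF2BP2 window, with a median of 0.63 and a range of -0.43 to 0.94. Part of this went with longer peaks: per kb of the peak in each library, the medians were 0.16 for PLAG1 and 0.33 for IGF2BP2, against 0.14 on the autosomes, with 6 of 6 and 6 of 7 regions still above 0. Peaks were longer in replicate 2 at 5 of 6 and 6 of 7 regions. Not scaled to peak length, the median over 15350 autosomal regions was 0.33, with 5th and 95th percentiles of -0.52 and 1.10, and all 13 regions lay between these. The differences between the animals at these promoter-like regions thus lay within the usual range for these libraries.

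H3K27ac showed no such shift. The log2 ratio had a median of -0.34 in the PLAG1 window (range -0.73 to 0.30, above 0 at 2 of 6 regions). In the IGF2BP2 window the median was 0.05 (range -0.43 to 0.77, above 0 at 7 of 13 regions). Over 34899 autosomal regions the median was -0.07, with 5th and 95th percentiles of -0.99 and 0.67. Per kb of the peak the medians were -0.07 for PLAG1 (above 0 at 0 of 6 regions) and 0.02 for IGF2BP2 (7 of 13), against -0.03 on the autosomes. Unscaled for length, 18 of the 19 regions lay between the percentiles given, and the exception was the region from 200013893 to 200019980.

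**Figure D5:**
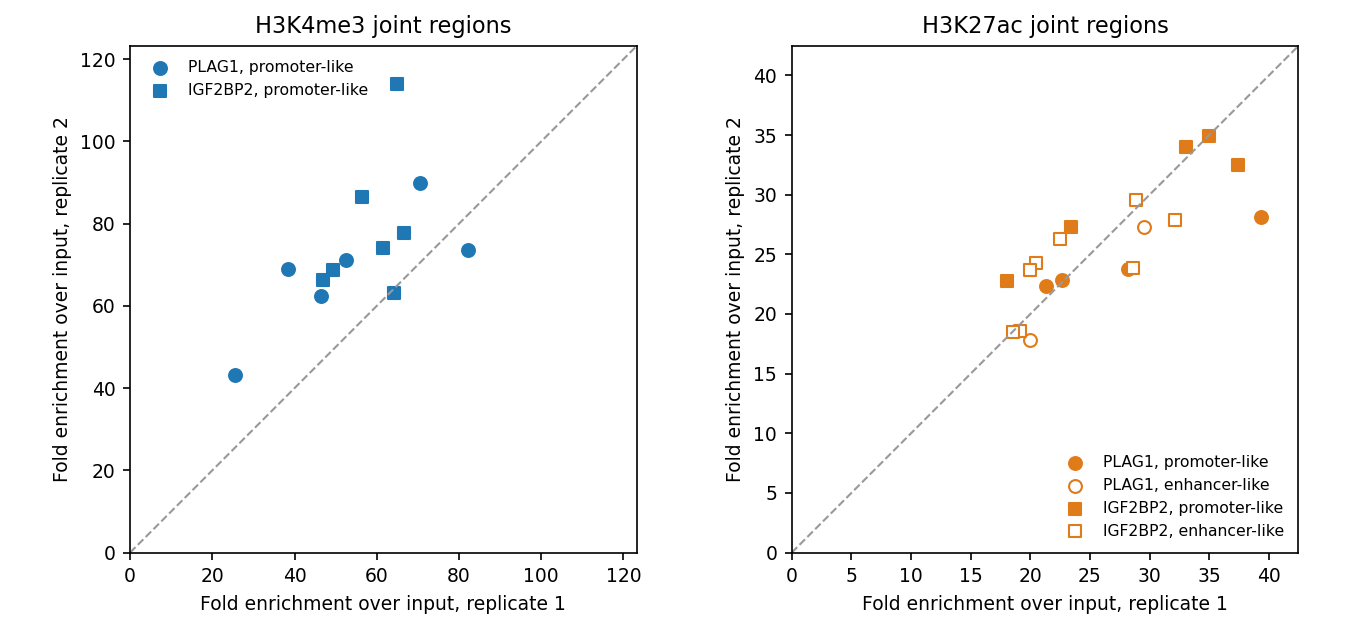
Fold enrichment over the input in replicate 1 against replicate 2 for the joint regions of both windows, taking the highest peak of each region, with promoter-like regions filled and enhancer-like regions open. The dashed line marks equal values, and 11 of the 13 H3K4me3 regions lie above it while H3K27ac regions lie on either side.

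Set against each other, the windows differed in H3K27ac and H3K27me3. They were alike in the number of H3K4me3 regions per Mb, which was higher in both than on the autosomes, but not in H3K4me3 coverage. Joint H3K4me3 regions numbered 10.0 per Mb in the PLAG1 window and 10.8 per Mb in the IGF2BP2 window, against 6.26 per Mb on the autosomes. H3K27ac regions numbered 10.0 and 20.0 per Mb against 14.2, and enhancer-like regions 3.33 and 12.3 per Mb against 10.7. For H3K27me3 the values were 10.0 and 1.54 per Mb against 6.30. H3K27ac covered 3.75% of the PLAG1 and 9.66% of the IGF2BP2 window, against 7.47% of the autosomes. H3K4me3 covered 2.51% of the PLAG1 and 4.21% of the IGF2BP2 window, against 2.06% of the autosomes. Windows made the same way around the sweep regions of LCORL and BCO2, other genes of the study's list, had 5.08 and 27.9 H3K27ac regions per Mb, and 3.39 and 14.8 H3K27me3 regions per Mb, so that both windows lay between them for these marks or, for H3K27me3 at IGF2BP2, below. The LCORL and BCO2 windows had 8.47 and 18.0 H3K4me3 regions per Mb, also above the autosomes. The denser H3K4me3 was thus not particular to PLAG1 and IGF2BP2. Each window is a single stretch of the genome, so these densities are descriptions and were not tested.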

How the data were processed

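ChIP-Seq libraries of H3K4me3 and H3K27ac (2 each) were grouped by mark and animal from the sample labels. The authors mapped reads to Oar_v3.1 with CLC software, kept uniquely mapped reads and called peaks per library with MACS 1.4.2 against 1 pooled input, with a p-value limit of 1e-05. Per the file headers, the deposited lists give tags in the peak as a count, a score made from the log10 of the p-value, fold enrichment over the input as a ratio, and the FDR in percent. The input is shallow, so fold and FDR rest on few input tags. The deposited joint lists hold positions alone. Left out were 8 columns of H3K27me3 values in 2 files that match none of the labelled samples.

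Sweep regions were read from the study's supplementary list. An entry was a member if it shared at least 1 bp with a window. Positions are 1-based, as MACS writes them, and the joint lists hold the same starts and ends. Where a joint region held several peaks of a library, tags were summed and the highest fold enrichment was taken, over peaks within the FDR limits of 1% (H3K4me3) and 10% (H3K27ac). These limits follow the names of the joint lists and the peaks in them. The methods text gives stricter limits, tried as an alternative. Depth-scaled tags are tags divided by all tags of the library after duplicate removal, and percentiles to all autosomal peaks of the library. Described are all joint regions in the windows and the peaks of both replicates outside them. Genes are named from the study's list and RefSeq. The members, definitions and alternatives were chosen with earlier results of these data known. Growth pathway genes and tissue markers were not analysed here for want of gene positions. The overlap code was tested on simulated data. Tables were made in Python 3.11.15 with pandas 2.3.3 and numpy 2.4.6, exact (Clopper-Pearson) intervals with scipy 1.17.1, and plots with matplotlib 3.10.9.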

Additional observations from a re-analysis of the deposited data

How the results depend on the processing

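The FDR limit, the window and the use of both libraries set the counts. With peaks at every FDR, the H3K4me3 regions of both replicates rose from 6 to 17 for PLAG1 and from 7 to 11 for IGF2BP2. At stricter FDR limits of 0.1% for H3K4me3 and 1% for H3K27ac, 0 regions of either mark were left in either window. No H3K27ac peak of either window had an FDR below 3.88%, and no H3K4me3 peak of replicate 2 had one below 0.16%. FDR did not follow peak strength closely, as the H3K27ac peak with the highest score (540.71, replicate 1) had an FDR of 10.66%. No autosomal count at these limits is given here, so the zeros cannot be read as a trait of these loci. These stricter limits are those of the methods text, and every promoter-like and enhancer-like region described rests on the wider limits of the deposited joint lists. The study's count of 16098 H3K4me3 regions is, however, also the size of the deposited joint list. The H3K4me3 limit stated in the methods text and the list thus differ, and the promoter-like regions are not shown to fall outside the study's own set. Within 100 kb of the sweep, 3 H3K27ac and 0 enhancer-like regions were left for PLAG1, and 3 H3K4me3, 4 H3K27ac and 3 enhancer-like regions for IGF2BP2. In the sweep regions alone these were 2 H3K4me3, 1 H3K27ac and 0 enhancer-like regions for PLAG1 and 0, 2 and 2 for IGF2BP2. With 1 library alone, H3K4me3 regions ran from 6 to 11 for PLAG1 (11 without replicate 2) and from 7 to 9 for IGF2BP2. H3K27ac regions were 9 either way for PLAG1 and ran from 14 to 21 for IGF2BP2 (21 without replicate 1). Enhancer-like regions ran from 2 to 5 for PLAG1 (5 without replicate 1) and from 9 to 14 for IGF2BP2 (14 without replicate 1). With H3K4me3 peaks of any FDR also barred from enhancer-like regions, 1 was left for PLAG1. Within the FDR limits, the percent of H3K4me3 peaks in both replicates was 54.5 (replicate 1) and 100.0 (replicate 2) for PLAG1 and 100.0 (replicate 2) for IGF2BP2. For H3K27ac of replicate 1 near IGF2BP2 it was 100.0 within 100 kb. A reciprocal overlap of 50% moved no count or percent beyond its limit, and no alternative turned the sign of a median log2 ratio. Per kb of the peak, the median for H3K4me3 fell from 0.54 to 0.16 for PLAG1, more than the SD of 0.27 over its 6 regions but less than that of 0.51 over the autosomes, and from 0.63 to 0.33 for IGF2BP2. That for H3K27ac went from -0.34 to -0.07 and from 0.05 to 0.02. The cause of these changes was not tested beyond their construction, which keeps fewer or more peaks. No paired analysis was possible because no test was run. Leaving out a replicate gives no shared percent or ratio.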
